A study of Mus musculus with 16 samples.

Results

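The genes described here encode the subunits of the mitochondrial respiratory chain and ATP synthase that nuclear DNA supplies, together with the complex I assembly factors that share their naming. They were taken as every non-control array target whose RefSeq identifier maps to a symbol beginning with Ndufa, Ndufb, Ndufc, Ndufs, Ndufv, Uqcr, Cox4 to Cox8 or Atp5, or equal to Sdha, Sdhb, Sdhc or Sdhd. This gave 91 genes of the 19096 on the array that carry a symbol, and 87 of them entered the tests, out of 24651 genes and unnamed targets tested. The rule itself uses names and no measured value. They fall into complex I (36 genes, 35 tested), complex I assembly factors (7, all tested), complex II (4, 3 tested), complex III (8, all tested), complex IV (19, 17 tested) and complex V, the ATP synthase (17, all tested). Ndufa4 is counted with complex IV, to which its protein is now assigned. The protein-coding genes Ndufa4l2, Ndufaf8, Ndufb1, Ndufb4b and Ndufb4c match the naming rule but were not analysed here.

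RNA of whole mouse uterus was hybridised to 16 one-colour arrays, 4 in each of 4 groups. GenD animals received genistein, a soy isoflavone with estrogenic activity, at 50 mg/kg on postnatal days 1 to 5, and dexamethasone, a synthetic glucocorticoid, at 1 mg/kg as adults. SalD animals received the neonatal control injection and the same adult dexamethasone. GenV animals received neonatal genistein and 100 µl of saline as adults, and SalV animals received the neonatal control injection and the adult saline. The sample labels call the neonatal control saline, while the design text gives 20 µl of corn oil. All 4 groups were adrenalectomised and ovariectomised at 6 weeks and killed at 8 weeks, 4 h after the adult injection, so no group had its own adrenal or ovarian hormones. No label ties an array to a named animal, and the p-values therefore cover the variation among these hybridised samples, which may be technical.

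Oxidative phosphorylation passes electrons from NADH through complex I, or from succinate through complex II, to coenzyme Q, then through complex III, cytochrome c and complex IV to oxygen. The proton gradient built up on the way drives ATP synthesis by complex V. Nearly all subunits come from nuclear genes that are expressed in every tissue, and several complex IV subunits have alternative isoforms for heart and skeletal muscle, lung or testis. Nuclear respiratory factor NRF1 and the ETS factor GABP are known activators of many of these genes, and glucocorticoids act through the receptor encoded by Nr3c1.

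A value below is a log2 signal relative to the 75th percentile of the signals on its array, so 0 means a spot as bright as that percentile. Signals of different probes are set against each other only to choose the brightest probe and to sort genes into classes of brightness. The summed marker signals below add different probes, so the brightest probes weigh most in them. The brightest probe stands for each gene, and 72 of the 91 genes have 1 probe. Of the 87 tested genes, 75 had a mean signal in the brightest of 5 equal classes of all tested genes and targets. No spot of the probes that stand for the 91 genes was saturated. The dexamethasone labels held on every array: Fkbp5, a glucocorticoid-induced cochaperone, averaged 0.46 ± 0.51 in GenD, 1.06 ± 0.35 in SalD, -4.10 ± 0.30 in GenV and -3.38 ± 0.92 in SalV (SD, n = 4 each). All 12 uterine markers were tested. The 75th percentile signals ran between 948 and 2719 intensity units per array, and 68.9% to 81.3% of probes were well above background, SalV array 3 being lowest in both. By group the 75th percentile was 1321 to 1803 in GenD, 1987 to 2719 in SalD, 1439 to 1970 in GenV and 948 to 2029 in SalV. The level used for scaling was thus higher in SalD than in GenD on every array. Counts under other scalings are given below. SalV array 3 was scanned alone on slide 5. The other arrays share 4 slides.

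The median of the oxidative phosphorylation genes shifted by small amounts from array to array, and the complexes did not always move alike. On SalD array 1, for one, complex II lay at 0.15 and complex V at -0.34. The median deviation of the 87 genes from their own 16-array means was 0.21, -0.23, 0.12 and 0.20 in GenD arrays 1 to 4. It was -0.19, 0.05, 0.00 and 0.06 in SalD, 0.01, 0.01, 0.06 and 0.17 in GenV, and -0.16, -0.26, 0.16 and -0.14 in SalV. GenD array 2 stood apart from the other 3 GenD arrays, and the 4 groups overlapped. It lies on slide 3 with SalD array 1 and SalV array 2, the other low arrays of their groups, and with GenV array 4, the highest GenV array. The brightest class as a whole went the same way on these arrays, at -0.08, -0.09, -0.13 and 0.08 in that order. Complex IV on GenD array 2 had the lowest median of any complex on any array, -0.49. The residual spread within groups had a median SD of 0.23 for these genes, against 0.22 for the brightest class and 0.37 for all tested genes.

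**Figure D1:**
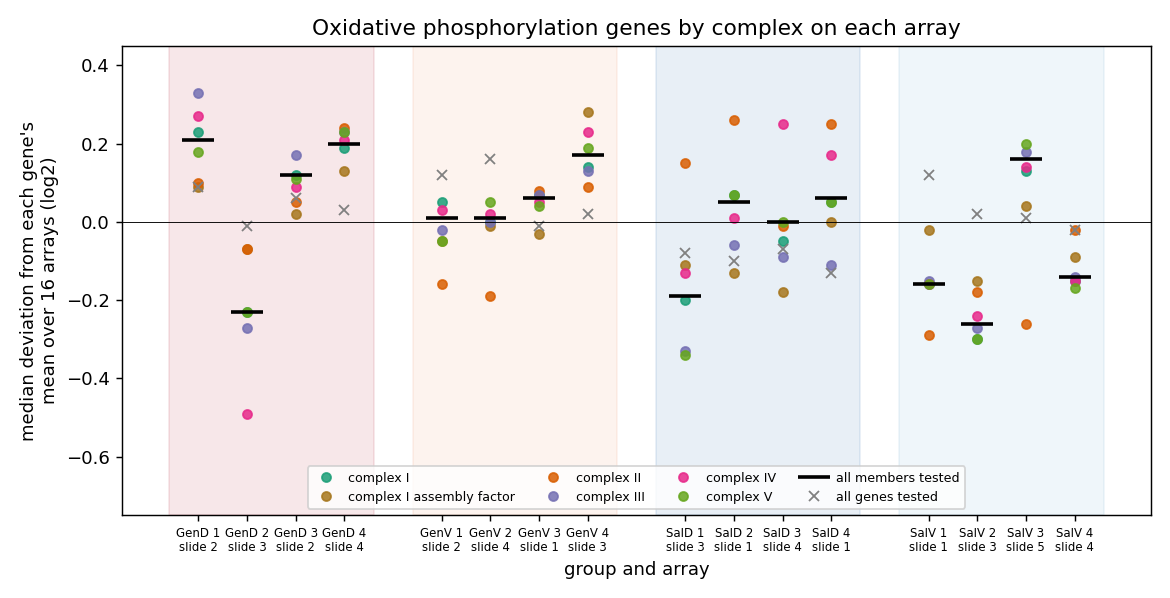
Median deviation of each complex on each of the 16 arrays (vertical axis, log2, relative to each gene's mean over all arrays), with arrays grouped by treatment along the horizontal axis and the slide given under each. Black bars are the median of all 87 genes and crosses that of all genes tested. GenD array 2 lies at -0.23, below the other GenD arrays at 0.12 to 0.21.

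In control animals dexamethasone raised 8 of the 87 genes and lowered 2 (SalD against SalV). Of the risers 5 are complex I subunits, led by Ndufab1 (log2 fold change 1.00), Ndufv2 (0.77), Ndufa8 (0.72) and Ndufb6 (0.68). The other risers are the Rieske protein gene Uqcrfs1, the complex II anchor Sdhd and the ATP synthase head subunit Atp5a1. The genes that fell are Cox6b2, the testis isoform of a complex IV subunit, and Atp5g2, which encodes the c subunit of the ATP synthase ring. Calls are adjusted p-values below 0.05 from limma with Benjamini-Hochberg adjustment over all tested genes and targets. Over all of these 8.45% were called higher and 14.6% lower, against 9.2% and 2.3% of the oxidative phosphorylation genes. In the brightest class, where most of these genes lie, the shares were 12% higher and 9.9% lower. The median log2 fold change was 0.06 for the 87 genes, 0.02 for the brightest class and -0.16 for all tested. Scaling arrays on their medians moved the member median to 0.29 and the calls to 13 higher and 1 lower, and quantile normalization gave 11 and 4. Slide as a fixed block left 8 calls, 6 higher and 2 lower. Leaving out SalD array 4 or SalV array 1 left 5 calls (4 higher, 1 lower in each case).

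White adipocyte markers moved with this comparison. Their summed linear signal was 38.6, 265, 233 and 116 in SalD arrays 1 to 4, in multiples of the array's 75th percentile, against 31.9, 15.8, 18.8 and 10.6 in SalV. It was 22.4 to 92.2 in GenD and 27 to 85 in GenV, and all 10 of these markers were tested. Of the 10, 7 were called higher in SalD than in SalV and none lower, against 8.45% and 14.6% over all tested. They include Lep (log2 fold change 4.63, adjusted p = 0.00841, limma) and Adipoq (3.84, adjusted p = 0.0252, limma). Without SalD arrays 2 and 3, the highest in these markers, 7 oxidative phosphorylation genes were called, 5 higher and 2 lower. In whole tissue, fewer cells of a type and less RNA per cell cannot be told apart. The part of adipose cells in the member changes was not tested. Within slides 1, 3 and 4 the median of the 87 genes was 0.20, 0.06 and 0.10, against -0.25, -0.11 and -0.08 for all tested.

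After neonatal genistein, dexamethasone changed 1 of the 87 genes: Ndufaf4, a complex I assembly factor, rose by 0.74 on the log2 scale (GenD against GenV, adjusted p = 0.0365, limma). Over all genes and targets 2.49% were called higher and 2.8% lower. The smallest p in the other complexes belonged to Ndufv2 (0.27, adjusted p = 0.29), Sdhb (0.20, adjusted p = 0.545), Uqcrfs1 (0.34, adjusted p = 0.391), Cox6a2 (-0.61, adjusted p = 0.371) and Atp5pb, a subunit of the ATP synthase's outer stalk (0.18, adjusted p = 0.666). The median log2 fold change was 0.01 for the 87 genes and -0.01 for all tested. The 95% interval of the fold change lay within 2-fold in either direction for 82 of the 87 genes, against 75 of 87 for dexamethasone in controls, and its median half-width was 0.37. The slides disagreed: the member median was 0.17 on slide 2, -0.38 on slide 3 and 0.18 on slide 4, with 75, 8 and 70 of 87 genes above 0. On slide 3 this sets GenD array 2 against GenV array 4. Without GenD array 2 the median was 0.12.

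The direct test of whether the dexamethasone response differed after genistein (the interaction) called 0 of the 87 genes with limma, and 0% of all tested genes and targets in either direction. The unadjusted p was below 0.05 for 10 of the 87. The member median of the interaction was -0.08, against 0.13 for all tested. The smallest p in complex I was that of Ndufv3, with an interaction of -0.66 (SE 0.23, adjusted p = 0.223, limma). Those nearest a call elsewhere were Cox7b2 in complex IV, which is below background on most arrays (adjusted p = 0.271), Atp5a1 in complex V (-0.44, adjusted p = 0.278), Uqcr11 in complex III (0.50, adjusted p = 0.307), Ndufaf3 among the assembly factors (0.42, adjusted p = 0.339) and Sdhd in complex II (-0.40, adjusted p = 0.362). Other probes gave interactions of 0.67 and 0.52 for Ndufv3 and 0.32 for Atp5a1, opposite in sign to those of the brightest probes. A difference between the responses in controls and after genistein was therefore not shown for any of the 87.

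With vehicle, neonatal genistein changed none of the 87 genes by the test (GenV against SalV, limma), while 8 had an unadjusted p below 0.05. Over all genes and targets 0.00406% were called higher and 0% lower. The median log2 fold change was 0.15 for the 87 genes, against 0.05 for all tested and 0.08 for the brightest class. Gene lists described below had medians of 0.17 (mitochondrial ribosome), 0.22 (fatty acid oxidation), 0.24 (glycolysis) and 0.14 (citric acid cycle). Those of the biogenesis regulators, coenzyme Q synthesis and the cytosolic ribosome were 0.1, 0.03 and 0. By complex the median was 0.16 for complex I, 0.08 for its assembly factors, 0.19 for complex II, 0.13 for complex III, 0.20 for complex IV and 0.15 for complex V. In complex V Atp5g1 had the smallest p, at 0.50 (SE 0.20, adjusted p = 0.344, limma). Ndufa3 (0.45), Cox5a (0.48), Uqcrc1 (0.31), Ndufaf7 (0.29) and Sdhd (0.20) had the smallest p in their groups, with adjusted p between 0.344 and 0.492. Within slides 1, 3 and 4 the member median was 0.26, 0.41 and 0.14, against -0.14, 0.04 and 0.15 for all tested. SalV array 3, the array scanned alone, was the highest SalV array, and without it the median was 0.26. White adipocyte markers had a median log2 fold change of 2.62 in GenV against SalV, with 0 of 10 called. Their summed signal was 27 to 85 in GenV and 10.6 to 31.9 in SalV. The part of adipose cells in the member median was not tested.

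Under dexamethasone, neonatal genistein raised 9 of the 87 genes and lowered 5 (GenD against SalD). The largest rise was that of Atp5g2 (log2 fold change 0.96), followed by Atp5g1 (0.68), Uqcr11 (0.64), Cox5b (0.61), Atp5d (0.56), Ndufb7 (0.53), Ndufaf3 (0.50), Uqcrc1 (0.50) and Ndufv1 (0.36). The genes that fell are Ndufab1 (-0.65), Ndufaf5 (-0.63), Ndufa8 (-0.62), Ndufv2 (-0.43) and Atp5a1 (-0.39). Over all genes and targets 16.5% were called higher and 6.39% lower, against 10.3% and 5.75% of the oxidative phosphorylation genes, and the brightest class had 12.9% and 6.69%. The median log2 fold change was 0.13 for the 87 genes and 0.12 for all tested. The comparisons SalD against SalV and GenD against SalD share the SalD arrays, so each gene's values are given side by side below and no overlap of the calls is counted. Median scaling left 5 calls, 1 higher and 4 lower, normexp background correction 7, 4 higher and 3 lower, and leaving out SalD arrays 2 and 3 left 5, 4 higher and 1 lower. Of the 9 risers only Atp5g2 kept its call with median scaling. The count was 8 without GenD array 4, SalD array 1, SalD array 3 or SalD array 4, and 5 without GenD array 3. Without GenD array 2 it was 15, all higher. White adipocyte markers had a median log2 fold change of -0.97, with 1 of 10 called lower and 0 higher. Their summed signal was 22.4 to 92.2 in GenD and 38.6 to 265 in SalD. Testis markers were higher in GenD than in SalD in 3 of 4 (summed signal 0.204 to 0.285 in GenD, 0.0534 to 0.193 in SalD) and striated muscle markers in 2 of 10 (4.49 to 9.87 in GenD, 3.04 to 6.03 in SalD), and the uterine marker sums were 262 to 303 in GenD and 201 to 235 in SalD. The part of any of these cell types in the calls was not tested. On slides 3 and 4 the member median was -0.02 and 0.21, and without the arrays of slide 3, an alternative chosen after seeing the data, 3 genes were called.

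**Figure D2:**
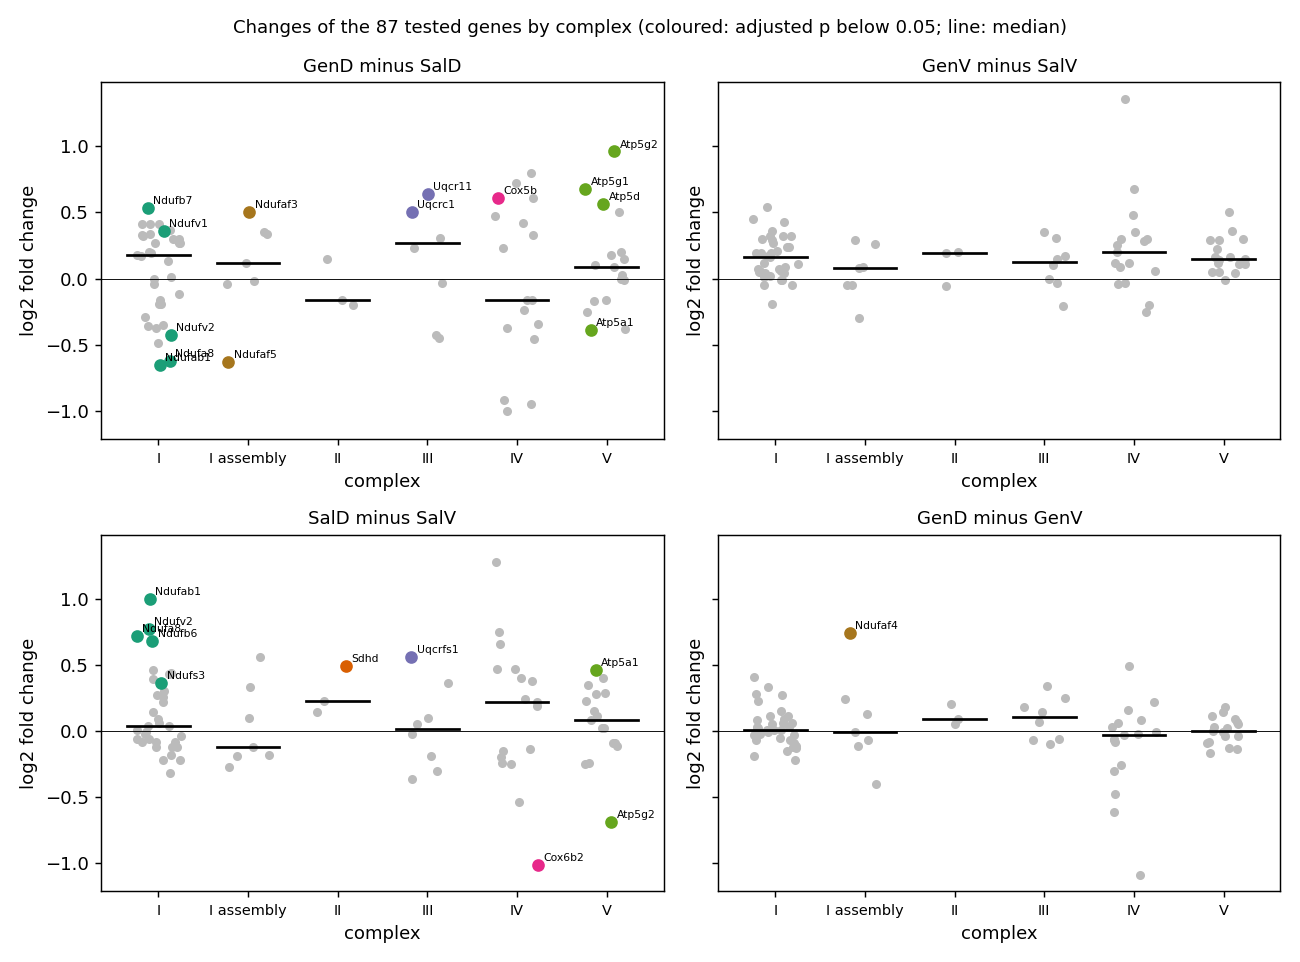
Log2 fold change of the 87 tested genes (vertical axis) by complex (horizontal axis) in 4 comparisons. Coloured and named points have an adjusted p below 0.05 and black lines are medians. Called genes number 14 for GenD minus SalD, 0 for GenV minus SalV, 10 for SalD minus SalV and 1 for GenD minus GenV.

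The upstream sequences of these genes were searched in RefSeq's promoter table for build GRCm38.p6, which holds 75 of the 91. The window was the 250 bases before the start of transcription, read on both strands. The NRF1 core GCATGCGC stood in 9 of 75 (12%), against 2.56% of all 27025 genes in the table. The ETS motif CCGGAAG stood in 13 (17.3%), against 7.83%, and at least 1 of these 2 motifs in 20 (26.7%), against 9.99%. The estrogen-related receptor half-site AAGGTCA stood in 5 (6.67%), against 4.7%, and the YY1 core AAGATGGC in 1 (1.33%), against 1.83%. The paired glucocorticoid half-sites ACANNNTGT stood in 0 of 75, against 6.76%. The CCAAT box stood in 33 (44%), against 37.5%, and the TATA box TATAAA in 7 (9.33%), against 14.3%. The windows of these genes were richer in G and C, with a median of 57.2% against 52.4%. The promoters of 4 of the called genes are shown as examples and do not stand for the share with a motif. Each is given as the 150 bases before the start, 5′ to 3′ on the gene's strand, with motif matches in capitals. Ndufa8 (chr2:36049339-36049488) and Atp5g2 (chr15:102671048-102671197) hold the NRF1 core, in Atp5g2 as 2 overlapping matches. Sdhd (chr9:50603850-50603999) holds the ETS motif in reverse complement, and Ndufv2 (chr17:66101560-66101709) holds none of the motifs searched. All 4 genes lie on the minus strand. A match is a description of the letters and no evidence of binding.
Ndufa8: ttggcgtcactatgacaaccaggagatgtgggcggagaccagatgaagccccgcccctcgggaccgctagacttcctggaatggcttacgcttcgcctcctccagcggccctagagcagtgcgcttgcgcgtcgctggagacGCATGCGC
Atp5g2: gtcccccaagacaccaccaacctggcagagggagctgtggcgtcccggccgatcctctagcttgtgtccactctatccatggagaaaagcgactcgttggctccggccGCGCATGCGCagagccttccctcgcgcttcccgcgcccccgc
Sdhd: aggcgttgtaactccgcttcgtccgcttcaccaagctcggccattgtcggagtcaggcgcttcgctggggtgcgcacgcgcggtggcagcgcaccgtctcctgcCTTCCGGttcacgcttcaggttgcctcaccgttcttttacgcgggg
Ndufv2: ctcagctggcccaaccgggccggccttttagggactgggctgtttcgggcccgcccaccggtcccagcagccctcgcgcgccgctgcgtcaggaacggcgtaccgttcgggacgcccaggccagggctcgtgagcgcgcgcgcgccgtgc
Ndufa8 and Atp5g2, which share the NRF1 core, were called in opposite directions in SalD against SalV. GenD against SalD uses the same SalD arrays and adds no separate observation. The part of these motifs in the changes was not tested. Ndufaf4, called in GenD against GenV, also has the NRF1 core in its window. Among the called genes the ETS motif also stood in Ndufb6, Ndufs3, Ndufb7 and Uqcr11. Neither motif stood in the windows of the called genes Ndufab1, Ndufv1, Ndufv2, Ndufaf3, Ndufaf5, Uqcrc1, Uqcrfs1, Cox5b, Cox6b2, Atp5d and Atp5g1.

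Complex I takes electrons from NADH through a flavin and a chain of iron-sulfur clusters to coenzyme Q. Ndufab1, the mitochondrial acyl carrier protein, which is also a complex I subunit, had the largest change of the called risers. It read 3.70, 3.18, 3.49 and 3.61 in GenD and 4.03, 4.15, 4.10 and 4.30 in SalD. It read 3.12, 3.04, 3.19 and 3.32 in GenV and 2.81, 3.18, 2.95 and 3.65 in SalV. All 4 SalD arrays were above all other arrays, and the other 3 groups overlapped one another. Ndufab1 was 1.00 log2 units higher in SalD than in SalV (SE 0.17, adjusted p = 0.00186, limma) and 0.65 lower in GenD than in SalD (log2 fold change -0.65, SE 0.17, adjusted p = 0.0185). Within slides 1, 3 and 4 the SalD minus SalV difference was 1.42, 0.85 and 0.45. The call against SalD was lost without GenD array 2 (adjusted p = 0.0515) or SalD array 4 (adjusted p = 0.0509), and a dimmer second probe gave 0.61 and -0.33, neither of them called.

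Ndufv2 encodes an iron-sulfur subunit beside the NADH-binding site. It read 2.40, 2.27, 2.38 and 2.55 in GenD, 2.91, 2.66, 2.76 and 2.99 in SalD, 2.11, 2.07, 2.09 and 2.25 in GenV, and 1.83, 2.01, 2.35 and 2.07 in SalV. SalD was again the highest group with no overlap, and GenD lay above all GenV arrays. The log2 fold change was 0.77 for SalD against SalV (SE 0.13, adjusted p = 0.00157, limma), with 0.99, 0.90 and 0.69 within slides 1, 3 and 4. It was -0.43 for GenD against SalD (SE 0.13, adjusted p = 0.0302), with -0.64 and -0.21 on slides 3 and 4. That call was lost without GenD array 2 or 3 or SalD array 1, 3 or 4 (adjusted p between 0.0534 and 0.0815). For GenD against GenV it was 0.27 (SE 0.13, adjusted p = 0.29).

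Ndufa8, an accessory subunit on the intermembrane side, read 3.73, 3.02, 3.69 and 3.67 in GenD, 3.96, 3.93, 4.30 and 4.38 in SalD, 3.46, 3.47, 3.17 and 3.56 in GenV, and 3.16, 3.45, 3.59 and 3.48 in SalV. The SalD arrays were above all others, and GenD array 2 was the lowest of the 16. The log2 fold change was 0.72 for SalD against SalV (SE 0.18, adjusted p = 0.0116, limma) and -0.62 for GenD against SalD (SE 0.18, adjusted p = 0.0257). A second probe gave 0.85 and -0.80. Without GenD array 2, SalD array 3 or SalD array 4 the adjusted p of the GenD against SalD change was 0.0628, 0.0693 and 0.0721. Ndufb6, an accessory subunit of the membrane arm, read 3.53, 3.37, 3.65 and 3.93 in SalD, against 2.93, 2.70, 3.20 and 2.94 in SalV. These groups did not overlap (log2 fold change 0.68, SE 0.17, adjusted p = 0.0111), and the 3 slides gave 0.73, 0.83 and 0.71. In GenD it read 3.42, 2.91, 3.48 and 3.52, overlapping SalD (log2 fold change -0.29, SE 0.17, adjusted p = 0.213).

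Ndufs3, a core subunit of the arm that reduces coenzyme Q, read 3.62, 3.90, 3.85 and 3.85 in SalD, against 3.31, 3.32, 3.58 and 3.57 in SalV. The groups did not overlap, but the difference was small (log2 fold change 0.36, SE 0.12, adjusted p = 0.0475, limma). The call was lost on leaving out any 1 array other than GenD 2, SalD 1, SalV 3 or SalV 4 (adjusted p between 0.0505 and 0.133), and with slide as a fixed block (0.40, adjusted p = 0.069). Ndufv1 binds the flavin and NADH. It read 3.97, 3.95, 4.06 and 4.15 in GenD, against 3.62, 3.91, 3.58 and 3.60 in SalD. The groups did not overlap, and SalD array 2 was close to the GenD arrays. Its log2 fold change was 0.36 (SE 0.12, adjusted p = 0.049), the opposite sign to its partner Ndufv2 in the same comparison. The call held only on leaving out SalD 2, SalV 2 or SalV 3, and otherwise the adjusted p lay between 0.0532 and 0.12.

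Ndufb7, another accessory subunit of the membrane arm, read 4.07, 3.76, 4.00 and 4.04 in GenD, against 3.31, 3.58, 3.40 and 3.43 in SalD (log2 fold change 0.53, SE 0.15, adjusted p = 0.0228, limma). The groups did not overlap, and slides 3 and 4 gave 0.45 and 0.64. Without GenD array 3 or 4 or SalD array 1 or 3 the adjusted p lay between 0.0526 and 0.0567. Of the 35 tested complex I genes, 30 were not called in SalD against SalV and 30 in GenD against SalD. Ndufb11, for one, had a log2 fold change of 0.04 in the first (95% interval -0.34 to 0.42) and 0.01 in the second (-0.38 to 0.39).

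The 7 assembly factors are not part of the finished enzyme. Ndufaf4, which acts early in building the arm that reduces coenzyme Q, read 2.14, 1.54, 2.12 and 1.96 in GenD, 1.95, 1.32, 1.73 and 2.29 in SalD, 1.30, 1.11, 1.15 and 1.25 in GenV, and 1.51, 1.31, 1.66 and 1.51 in SalV. GenD did not overlap GenV, and SalD overlapped SalV. Dexamethasone raised it by 0.74 after genistein (SE 0.19, adjusted p = 0.0365, limma), and its log2 fold change in controls was 0.33 (SE 0.19, adjusted p = 0.224), with an interaction of 0.41 (SE 0.27, adjusted p = 0.462). Slides 2, 3 and 4 gave 0.83, 0.29 and 0.86. The call was lost without GenD array 1, 3 or 4, any 1 GenV array or SalV array 4 (adjusted p between 0.0507 and 0.111) or with slide as a fixed block (0.68, adjusted p = 0.12), and 2 dimmer probes gave 0.61 and 0.75. Ndufaf3, its partner in that step, read 0.61, 0.49, 0.57 and 0.41 in GenD, against 0.01, 0.07, -0.26 and 0.25 in SalD (log2 fold change 0.50, SE 0.14, adjusted p = 0.0252). The groups did not overlap, and without GenD array 1 or 3 or SalD array 1 or 3 the adjusted p lay between 0.05 and 0.0777. Ndufaf5, which modifies an arginine of Ndufs7, read -0.49, -0.79, -0.94 and -0.40 in GenD, against -0.19, -0.02, -0.25 and 0.36 in SalD (log2 fold change -0.63, SE 0.21, adjusted p = 0.0483). That call was lost on leaving out any 1 array other than GenV 2, GenV 4, SalV 1 or SalV 4 (adjusted p between 0.0517 and 0.131), and with slide as a fixed block (-0.53, adjusted p = 0.189).

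Complex II, succinate dehydrogenase, also works in the citric acid cycle. Sdhd, 1 of its 2 membrane anchors, read 4.09, 3.79, 4.04 and 4.23 in GenD, 4.14, 4.32, 4.19 and 4.29 in SalD, 3.83, 3.67, 4.07 and 4.20 in GenV, and 3.55, 3.81, 3.64 and 3.97 in SalV. SalD did not overlap SalV (log2 fold change 0.49, SE 0.15, adjusted p = 0.0269, limma), with 0.76, 0.33 and 0.22 within slides 1, 3 and 4. The call was lost without SalD array 2 or 4 or SalV array 1 or 3 (adjusted p between 0.0537 and 0.0868), and with slide as a fixed block (0.46, adjusted p = 0.102). The flavoprotein Sdha had a log2 fold change of 0.14 in that comparison (95% interval -0.17 to 0.46) and the iron-sulfur subunit Sdhb one of 0.23 (-0.08 to 0.55), and neither was called. Sdhc, the other anchor, has 1 spot marked as an outlier by the scanner software, on GenD array 1, and was left out of the tests. Its remaining values were 2.27, 2.36 and 2.53 in GenD and 1.93, 2.07, 1.95 and 2.04 in SalD, without overlap. Fitted on its 15 arrays, an addition made after seeing the data, the GenD minus SalD difference was 0.39 (SE 0.15, adjusted p = 0.0736).

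Complex III passes electrons to cytochrome c. Uqcrfs1, the Rieske iron-sulfur protein, read 4.03, 3.20, 3.86 and 4.00 in GenD, 4.06, 4.28, 4.22 and 4.25 in SalD, 3.55, 3.40, 3.11 and 3.66 in GenV, and 3.34, 3.73, 3.57 and 3.92 in SalV. SalD was the highest group without overlap (0.56 above SalV, SE 0.19, adjusted p = 0.0494, limma). The call was lost on leaving out any 1 array other than GenD 2, GenV 3 or SalV 4 (adjusted p between 0.0503 and 0.149), and with slide as a fixed block (0.57, adjusted p = 0.0756). Uqcr11, a small accessory subunit, read 4.56, 4.15, 4.36 and 4.51 in GenD, against 3.55, 3.89, 3.82 and 3.74 in SalD. GenD lay above SalD on every array (log2 fold change 0.64, SE 0.16, adjusted p = 0.0134), and slides 3 and 4 gave 0.60 and 0.69. That call was lost with median scaling (adjusted p = 0.0637), normexp background (0.0614) and without the arrays of slide 3 (0.0513). Uqcrc1, a core protein, read 4.15, 4.04, 4.22 and 4.38 in GenD, against 3.54, 3.76, 3.73 and 3.76 in SalD (log2 fold change 0.50, SE 0.14, adjusted p = 0.0201). These groups did not overlap either. Without GenD array 3 or 4 or SalD array 1 the adjusted p was 0.0504, 0.0547 and 0.054, and its second probe gave 0.17 (adjusted p = 0.33).

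Complex IV, cytochrome c oxidase, reduces oxygen. Cox5b, a zinc-binding subunit, read 5.09, 4.84, 5.22 and 5.31 in GenD, against 4.35, 4.6, 4.48 and 4.56 in SalD. The groups did not overlap (log2 fold change 0.61, SE 0.16, adjusted p = 0.0178, limma), and slides 3 and 4 gave 0.49 and 0.83. The call was lost without GenD array 3 (adjusted p = 0.0503) and with median scaling (0.5, adjusted p = 0.0912). It was also lost without SalD arrays 2 and 3 (adjusted p = 0.0683) and without the arrays of slide 3 (adjusted p = 0.0517). Cox5b was not called in SalD against SalV (log2 fold change -0.24, SE 0.16, adjusted p = 0.303). Cox4i1, the general isoform of subunit 4, has an outlier-marked spot on SalV array 3 and was left out of the tests. It read 5.86, 5.86, 5.89 and 6.05 in GenD, 5.01, 5.37, 5.19 and 4.88 in SalD, 5.91, 5.98, 5.86 and 6.07 in GenV, and 5.81, 5.44 and 5.46 in SalV. SalD lay below every array of the other groups. Fitted on its 15 arrays, again an addition after seeing the data, it was 0.80 higher in GenD than in SalD (SE 0.13, adjusted p = 0.00384) and fell by 0.46 in SalD against SalV (log2 fold change -0.46, SE 0.14, adjusted p = 0.0368).

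Cox6b2 is known as the testis isoform of subunit 6b. It read 0.20, -0.76, -0.17 and -0.52 in GenD, -0.90, -0.58, -1.36 and -1.30 in SalD, 0.22, 0.39, -0.31 and -0.53 in GenV, and 0.25, -0.02, -0.04 and -0.31 in SalV. SalD did not overlap SalV (log2 fold change -1.01, SE 0.26, adjusted p = 0.0139, limma), and slides 1, 3 and 4 gave -1.19, -0.88 and -1.05. GenD overlapped SalD (log2 fold change 0.72, SE 0.26, adjusted p = 0.0551). The testis marker Tnp1 also fell in SalD against SalV (-1.74, adjusted p = 0.0241). It was 1 of the 4 testis markers tested, against 14.6% lower over all tested genes and targets. Their summed signal was 0.0534 to 0.193 in SalD, against 0.155 to 0.346 in SalV, in multiples of the 75th percentile. The part of such transcripts in the Cox6b2 change was not tested. Cox6b1, the general isoform, had a log2 fold change of 0.47 in SalD against SalV (95% interval -0.03 to 0.97, adjusted p = 0.16), opposite in sign to that of Cox6b2.

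The heart and muscle isoforms were measured on all 16 arrays and none was called. Cox6a2 had log2 fold changes of 0.61 for GenD against SalD and -0.54 for SalD against SalV (adjusted p = 0.191 and 0.256, limma). Cox7a1 had 0.47 and -0.14 (adjusted p = 0.0609 and 0.597). Cox8b read -1.30, 0.80, 0.50 and -0.51 in SalD, against -0.44, -1.0, -0.90 and -1.17 in SalV. The groups overlapped (log2 fold change 0.75, 95% interval -0.13 to 1.63), and SalD arrays 2 and 3, the highest in Cox8b, were also those highest in the white adipocyte markers. Of the striated muscle markers, 2 of 10 were lower in SalD than in SalV, against 14.6% of all tested genes and targets. They are Myh1 (-1.49, adjusted p = 0.00416, limma) and Myh4 (-1.33, adjusted p = 0.0182, limma), and the summed signal of the 10 was 3.04 to 6.03 against 3.48 to 8.36. Brown adipocyte markers numbered 2 lower of the 5 tested, out of 7 listed, with sums of 2.05 to 4.06 against 5.16 to 7.95. The part of these cells in the isoform values was not tested.

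The general partners of those isoforms were not called either. Cox6a1 had log2 fold changes of 0.33 for GenD against SalD and -0.15 for SalD against SalV, Cox7a2 had -0.24 and 0.24, and Cox8a had 0.42 and -0.25. Cox5a read 4.46, 4.55, 4.95 and 4.87 in SalD, against 4.19, 3.89, 4.56 and 4.33 in SalV, an overlapping difference of 0.47 (SE 0.20, adjusted p = 0.0976, limma). Cox7c read 2.57, 1.47, 1.90 and 2.59 in GenD, against 2.61, 3.11, 3.29 and 3.22 in SalD. These groups did not overlap, yet the spread was wide (log2 fold change -0.92, SE 0.34, adjusted p = 0.0636). Cox6c had -0.37 and 0.19, Cox7b -0.16 and 0.22, Cox7a2l, which helps to join complexes III and IV, -0.16 and 0.38, and Ndufa4 -0.34 and 0.40 in GenD against SalD and SalD against SalV, none of them called. Cox4i2, the lung isoform of subunit 4, was well above background on 7 of 16 arrays and averaged -6.29 ± 0.76 in GenD, -7.09 ± 1.68 in SalD, -6.78 ± 0.98 in GenV and -6.90 ± 0.51 in SalV (SD, n = 4 each). Cox7b2 was well above background on 6 arrays, 2 SalD and all 4 GenV. Cox7b2 passed the filter of 4 arrays only through those groups, and the groups compared overlapped, so no fold is given. It was not called in SalD against SalV (adjusted p = 0.186, limma) or in GenV against SalV (adjusted p = 0.37, limma). Cox8c was above background on 0 arrays.

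In complex V the 3 genes for the c subunit of the proton-driven ring, whose mature proteins are identical, differed in their changes. Atp5g2 read 4.93, 4.55, 4.88 and 5.01 in GenD, 3.56, 4.15, 3.98 and 3.84 in SalD, 4.96, 4.93, 5.11 and 4.74 in GenV, and 4.73, 4.26, 5.08 and 4.23 in SalV. SalD was the lowest group and overlapped no other. The log2 fold change was 0.96 for GenD against SalD (SE 0.20, adjusted p = 0.00668, limma), with 0.99 and 1.04 on slides 3 and 4, and -0.69 for SalD against SalV (SE 0.20, adjusted p = 0.0223), with -0.74, -0.69 and -0.25 on slides 1, 3 and 4. The fall in SalD was not called without SalD array 1 or 4 or SalV array 1 or 3 (adjusted p between 0.054 and 0.068), nor under median scaling (-0.46, adjusted p = 0.152). Its second probe gave 0.51 and -0.39. Atp5g1 read 3.47, 2.90, 3.55 and 3.54 in GenD, against 2.39, 2.68, 2.72 and 2.96 in SalD. GenD array 2 overlapped SalD (log2 fold change 0.68, SE 0.20, adjusted p = 0.0305), and leaving out GenD array 1, 3 or 4 or SalD array 1, 2 or 3 gave an adjusted p between 0.0513 and 0.0812. Atp5g3 read 5.49, 5.23, 5.50 and 5.65 in GenD, against 5.66, 6.00, 5.84 and 5.88 in SalD, lower without overlap but not called (log2 fold change -0.38, SE 0.14, adjusted p = 0.0668).

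Atp5d, a subunit of the rotating central stalk, read 3.42, 3.37, 3.34 and 3.65 in GenD, against 2.73, 3.07, 2.83 and 2.91 in SalD. The groups did not overlap (log2 fold change 0.56, SE 0.14, adjusted p = 0.0148, limma), and slides 3 and 4 gave 0.64 and 0.81. That call was lost with median scaling (0.44, adjusted p = 0.108) and without the arrays of slide 3 (0.53, adjusted p = 0.0699). Atp5a1, the alpha subunit of the catalytic head, read 5.24, 5.31, 5.25 and 5.37 in GenD, 5.48, 5.57, 5.83 and 5.85 in SalD, 5.21, 5.02, 5.33 and 5.52 in GenV, and 5.18, 5.31, 5.27 and 5.11 in SalV. By this probe SalD was above GenD and SalV without overlap, by 0.46 against SalV (SE 0.13, adjusted p = 0.0214) and with -0.39 for GenD against SalD (SE 0.13, adjusted p = 0.0436). A second Atp5a1 probe, with a spot missing on 1 array, went the other way: -0.34 for SalD against SalV (adjusted p = 0.0953) and 0.45 for GenD against SalD (adjusted p = 0.0491). The direction for Atp5a1 therefore depends on the probe. The call against SalV was lost without SalD array 3 or 4 or SalV array 1 (adjusted p between 0.0584 and 0.0664), and that of GenD against SalD on leaving out any 1 of the GenD arrays, GenV array 1, SalD array 3 or 4, or SalV array 1, 2 or 4 (adjusted p between 0.0505 and 0.117). With slide as a fixed block neither was called (0.48, adjusted p = 0.0592 against SalV, and -0.33, adjusted p = 0.169 for GenD against SalD). The gamma subunit Atp5c1 had log2 fold changes of -0.01 for GenD against SalD and 0.11 for SalD against SalV (95% interval of the second -0.20 to 0.42).

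**Figure D3:**
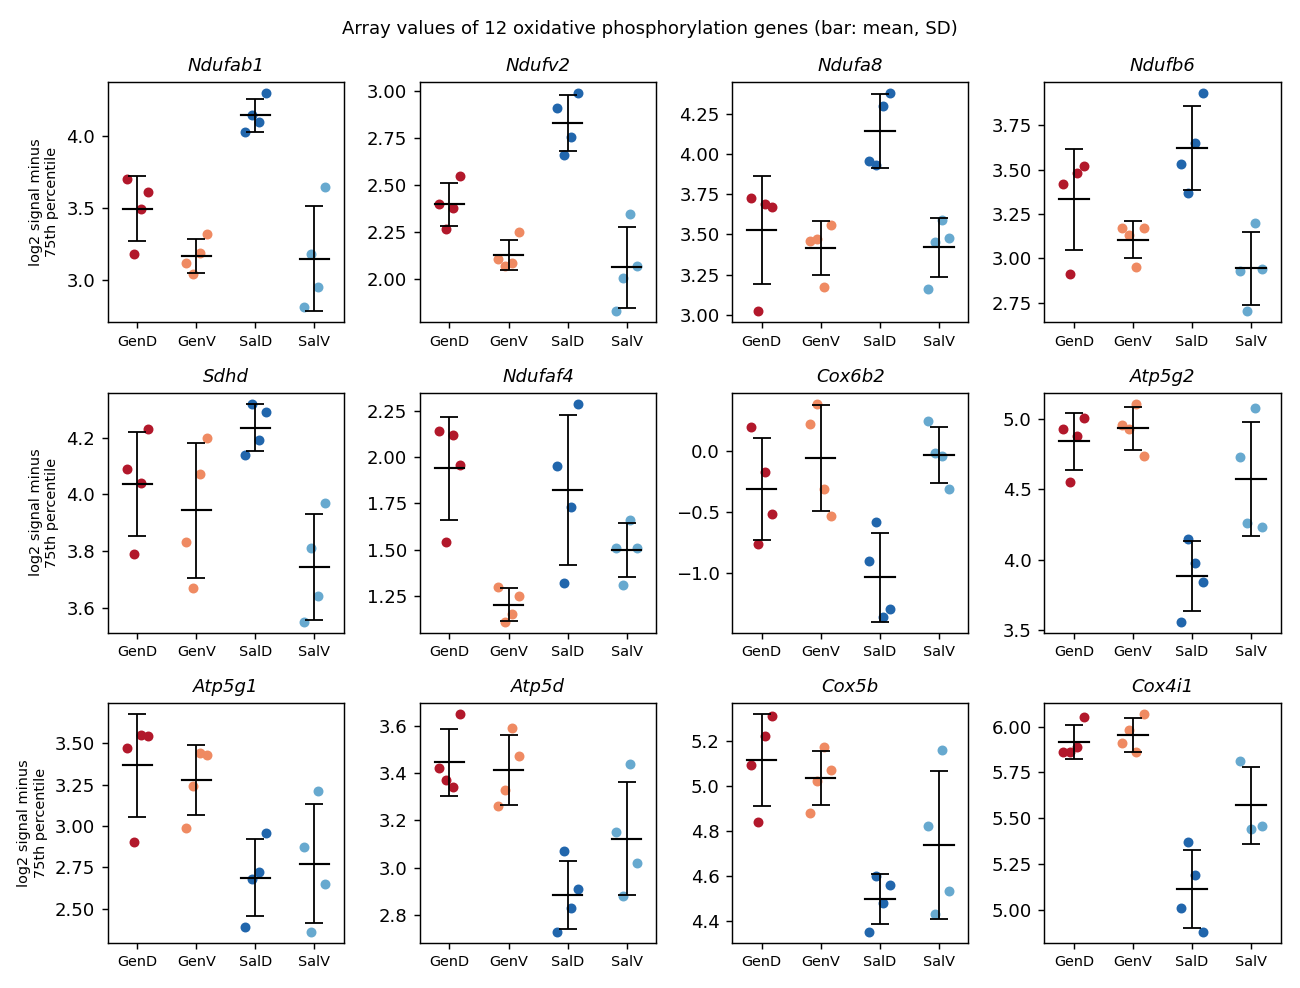
Array values (points, log2 signal minus the array's 75th percentile, vertical axes differ between panels) with mean and SD for 12 genes in the 4 groups, n = 4 each except Cox4i1 in SalV with 3. Ndufab1 in SalD spans 4.03 to 4.30, above all other arrays, and Atp5g2 in SalD spans 3.56 to 4.15, below all others.

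For the 19 genes with more than 1 probe, the probes often differed. In SalD against SalV 6 of the 19 had a probe of opposite sign to the brightest, and 4 had one that differed by at least 0.5 log2 units. In GenD against SalD these numbers were 4 and 4. In GenD against GenV 7 had a probe of opposite sign and 0 differed by at least 0.5. Ndufv3, which is made in a long and a short form, read 0.44 by its brightest probe in SalD against SalV (adjusted p = 0.062, limma), and its other probes gave -0.68 and -0.36. In GenD against SalD the same 3 probes gave -0.35, 0.63 and 0.53. Atp5b, the beta subunit, gave 0.28, -0.11 and 0.46 in SalD against SalV. Of the reference symbols that match the naming rule, 19 are pseudogenes, and signal from such copies cannot be told apart by these probes.

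**Figure D4:**
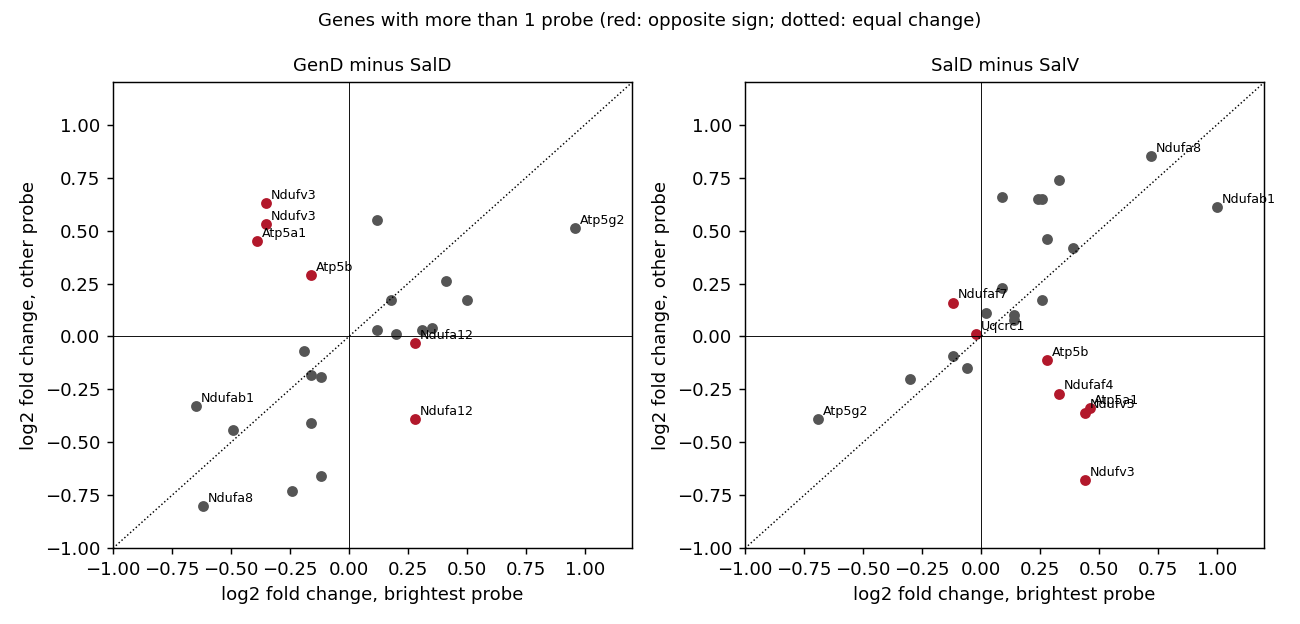
Log2 fold change by the brightest probe (horizontal axis) and by each other probe (vertical axis) of the 19 genes with more than 1 probe, for GenD minus SalD and SalD minus SalV. Red points have opposite signs. Ndufa8 lies near the dotted line of equal change (-0.62 and -0.80, 0.72 and 0.85), Atp5g2 keeps its sign with a smaller change by its other probe (0.96 and 0.51, -0.69 and -0.39), and Atp5a1 and Ndufv3 have opposite signs.

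Genes of neighbouring processes were listed for comparison, and their counts are to be read against the shares of all tested genes and targets, 8.45% higher and 14.6% lower in SalD against SalV and 16.5% higher and 6.39% lower in GenD against SalD. The brightest class had 12% and 9.9% in the first and 12.9% and 6.69% in the second. Among carriers that connect the complexes and genes of coupling, 5 of 17 rose and 0 fell in SalD against SalV, with a median log2 fold change of 0.23 against -0.16 for all tested. They include Cycs, which encodes cytochrome c (0.97, adjusted p = 0.00904, limma), Higd1a, which associates with complex IV (1.02, adjusted p = 0.00946), and Ucp3, a mitochondrial carrier of muscle and brown fat (1.81, adjusted p = 0.0432). Of the assembly factors of complexes II to V, 5 of 26 rose and 0 fell (median 0.12), led by Cox15 (0.91, adjusted p = 0.00694), which makes the haem of complex IV, Coa6 (0.70) and Sdhaf3 (0.61). In GenD against SalD the same list had 1 higher and 3 lower, Cox15 (-1.0), Sdhaf3 (-0.69) and Coa6 (-0.58) among the lower. Of 7 other complex I assembly factors none was called in SalD against SalV, and 2 were higher in GenD than in SalD, Timmdc1 (0.74) and Tmem186 (0.48).

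In the citric acid cycle and pyruvate dehydrogenase list 6 of 18 rose and 1 fell in SalD against SalV (median 0.26), against 8.45% higher and 14.6% lower over all tested, led by Idh3a (0.96, adjusted p = 0.00943, limma) and Pdhx (0.90, adjusted p = 0.00374). Pdk4, the kinase that switches pyruvate dehydrogenase off, rose by 1.72 in SalD against SalV (adjusted p = 0.00375) and by 1.40 in GenD against GenV (adjusted p = 0.027). It belongs to the glycolysis list, in which 4 of 20 rose and 1 fell in SalD against SalV (median 0.06), with Slc2a1, a glucose transporter (1.36), and Hk2, a hexokinase (1.24), among the risers. Of 15 genes of fatty acid oxidation 2 rose and 4 fell (median 0.03), led by Hadha (-1.18, adjusted p = 0.00144), which was 1.17 higher in GenD than in SalD (adjusted p = 0.00358). Coenzyme Q synthesis had 1 higher and 2 lower of 11 (median -0.15), with Coq7 at 0.69 and Coq8b at -0.70.

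Among 18 regulators of mitochondrial biogenesis, 2 rose and 2 fell in SalD against SalV (median 0.15). Pprc1, a coactivator of the PGC-1 family, rose in SalD against SalV (0.66, adjusted p = 0.00842, limma) and in GenD against GenV (0.75, adjusted p = 0.0103). Gabpa, the DNA-binding subunit of GABP, rose by 0.64 in SalD against SalV (adjusted p = 0.0377), Esrrg fell by 0.87 (log2 fold change -0.87) and the coactivator Ppargc1a fell by 0.47 (log2 fold change -0.47). Mitochondrial ribosomal proteins had 11 higher and 1 lower of 73, and cytosolic ribosomal proteins 2 higher and 3 lower of 74, with medians of 0.19 and -0.23. In GenD against SalD, where 16.5% of all tested were higher and 6.39% lower with a median of 0.12, the counts were 4 higher and 1 lower of 11 for coenzyme Q synthesis, 2 and 1 of 18 for the regulators, 1 and 1 of 17 for the carriers, 2 and 0 of 18 for the citric acid cycle, 1 and 1 of 20 for glycolysis, and 3 and 2 of 15 for fatty acid oxidation. The mitochondrial ribosome had 9 higher and 1 lower of 73 (median 0.10), and the cytosolic ribosome 6 and 1 of 74 (median 0.18). In GenD against GenV, where 2.49% of all tested were higher and 2.8% lower, the glycolysis list had 2 higher, the regulators 1 higher and 1 lower, and the cytosolic ribosome 1 higher.

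**Figure D5:**
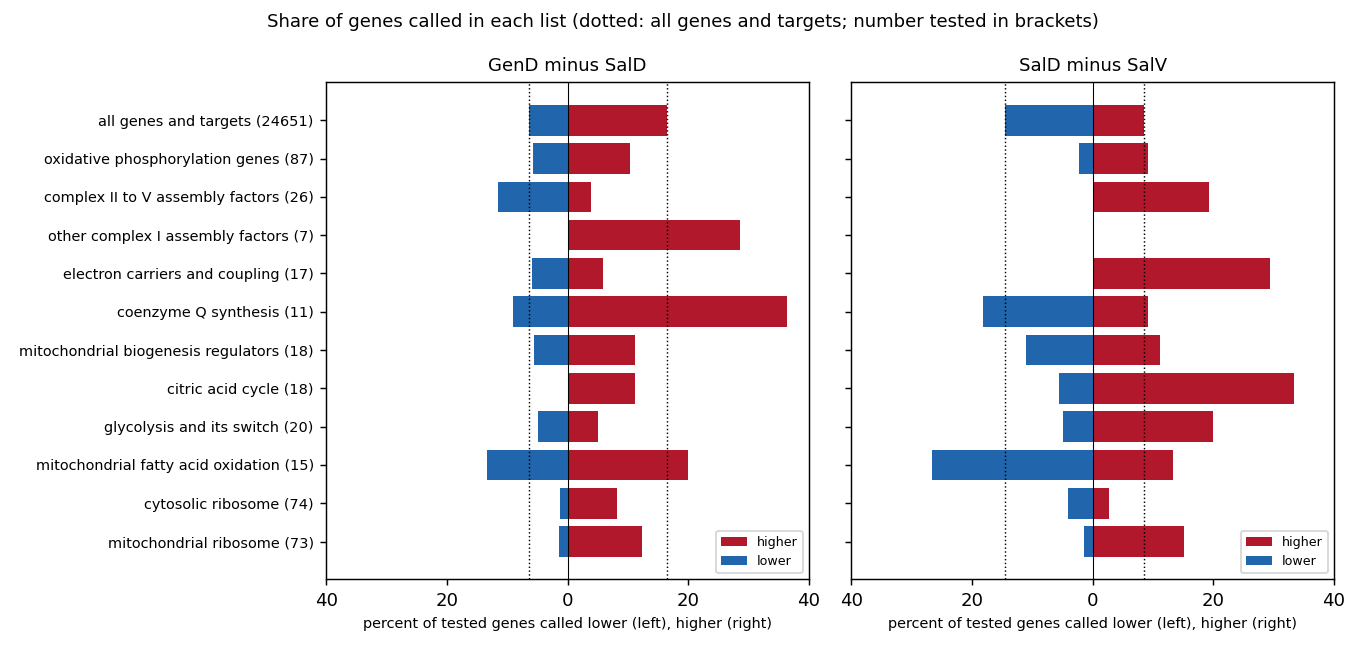
Percent of tested genes called higher (right) and lower (left) in each gene list, for GenD minus SalD and SalD minus SalV, with dotted lines at the shares of all 24651 genes and targets. In SalD minus SalV the oxidative phosphorylation genes have 9.2% higher and 2.3% lower.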

How the data were processed

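RNA of whole mouse uterus (400 ng per sample, Cy3) was measured on 16 one-colour Agilent arrays, 4 per group. The deposited intensities are background-subtracted processed signals from Agilent Feature Extraction, version 12.0.0.7 per the file headers and 9.5 per the submitters' processing notes. From these, 1639 control spots of 45018 were left out, log2 signals were centred on each array's 75th percentile, spots of a probe were averaged, 807 probes with a missing value were dropped, and the 32598 probes well above background on at least 4 arrays were kept. RefSeq identifiers were named through the GRCm38.p6 annotation (28223 of 29245 probes). The brightest probe stood for a gene. All 16 arrays were fitted together with limma 3.58.1 in R 4.3.3, with Benjamini-Hochberg adjustment over 24651 genes and targets. The limma fit was tried on simulated gene values with known changes placed in SalD, read out for SalD against SalV. The steps before the fit were not tested in this way. The number of arrays limits the precision.

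The naming rule and gene lists were chosen with earlier results of these data known. Named genes are all complex II and IV genes and, elsewhere, up to 3 called genes with the largest rise and 3 with the largest fall per comparison, or the smallest p where none was called. Further called genes were named after their values were seen. Alternatives covered scaling, background (normexp on the median spot and background signals), filters, probes, slide, replicate number, variance model, threshold and leaving out arrays. Same-numbered arrays did not deviate together in every pair, with correlations between -0.129 and 0.357, so the numbers were not taken to pair them. The correlations were all positive in GenD against SalD (0.066 to 0.357) and in GenV against SalV (0.024 to 0.165). The negative ones lay in the dexamethasone comparisons. Arrays of different groups share slides, and calls that end with slide as a fixed block are named beside the gene.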

Additional observations from a re-analysis of the deposited data

Results flagged for a closer look

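In 14 of 180 groups of 4 examined, 1 array lay apart from the other 3 by more than Dixon's 95% critical value. Chance gives about 1 in 20 such groups. GenD array 2 accounted for 5 of the single-gene cases: Ndufa8 read 3.02 there and 3.67 to 3.73 on the other GenD arrays, Ndufb6 2.91 against 3.42 to 3.52, Atp5g1 2.90 against 3.47 to 3.55, and Cox8a 5.06 against 5.41 to 5.48. Sdha stood out in the other direction, at 2.16 against 1.59 to 1.68.

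SalD array 1 was low for Uqcrc1 (3.54, others 3.73 to 3.76), for Cox7a2 (3.94, others 4.17 to 4.20) and for the complex V median (-0.34, others 0.00 to 0.07). GenV array 4 was high for the complex I assembly factor median (0.28, others -0.05 to -0.01) and for the complex IV median (0.23, others 0.02 to 0.05). Cox4i1 read 6.05 on GenD array 4 (others 5.86 to 5.89), Ndufv1 3.91 on SalD array 2 (others 3.58 to 3.62), Cox6c 5.17 on GenV array 3 (others 5.42 to 5.44) and Cox6b1 0.16 on SalV array 1 (others 0.52 to 0.59).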

How the results depend on the processing

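Ndufa8, Ndufb6, Ndufv2 and Cox6b2 in SalD against SalV, and Atp5g2 in GenD against SalD, kept their calls under every alternative run. A second Atp5a1 probe reversed its direction, to 0.45 for GenD against SalD and -0.34 for SalD against SalV. In SalD against SalV an adjusted p below 0.1 gave 16 calls, and median scaling moved the member median to 0.29 and that of all genes to 0.07. Leaving out 1 array gave 5 to 12 calls. In GenD against GenV the count was 0 with median scaling, normexp background, no filter, slide as a fixed block, only the arrays compared, without GenV arrays 3 and 4, and without slide 3, and it was 10 with array weights and 0 to 1 on leaving out 1 array. The interaction had 0 calls throughout. Its member median was -0.27 with median scaling and 0.10 without slide 3. In GenD against SalD the count was 5 with median scaling, 7 with normexp background, 38 with array weights, 25 at an adjusted p below 0.1, 5 without SalD arrays 2 and 3, 3 without slide 3, and 5 to 16 on leaving out 1 array. The causes were not tested. With the replicate block the counts were 15 for GenD against SalD, 0 for GenV against SalV and the interaction, 1 for GenD against GenV and 14 for SalD against SalV. That block was not used because pairs of equal number did not all deviate together. The series value table equals the scanner files and was not run separately.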
